A study of Mus musculus with 8 samples.

Results

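Urm1, Mocs3, Ctu1, Ctu2 and Cdkal1 are the genes for the sulfur chemistry of the anticodon loop of cytosolic tRNAs that read A-ending codons. They were chosen by gene symbol, and all 5 were found, each with 1 transcript, among the 10982 gene symbols listed in the deposited FPKM table. The study sequenced ribosome footprints and total RNA from a mouse cell model in which oligodendrocyte precursor cells (OPCs) are made from epiblast stem cells of strain 129S/SvEv and then differentiated into oligodendrocytes. It asked how differentiation changes the reading of codons by tRNAs. There were 8 libraries, with footprints and RNA-seq from each of 2 OPC and 2 oligodendrocyte cultures. The OPCs were kept in DMEM/F12 with N2 Max and B27, 20 ng/mL bFGF and 20 ng/mL PDGFA. The oligodendrocytes were made from OPCs over 3 days in the same base and supplements, without bFGF or PDGFA. Added instead were 100 ng/mL noggin, 100 ng/mL IGF-1, 10 uM cyclic AMP, 10 ng/mL NT3 and 40 ng/mL T3 (thyroid hormone). Before differentiation, OPCs were passaged in growth medium without bFGF, and more cells were seeded per dish than for the OPC cultures. Growth medium, seeding density and cell type cannot be told apart in this design. Plates were pooled in each lysate, part of the cells stay undifferentiated in this model, and all lysates contained emetine, which holds ribosomes on the mRNA.

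Thiolation of the wobble uridine in tRNAs such as Lys-UUU, Glu-UUC and Gln-UUG is carried out by a short relay. Urm1 is a ubiquitin-related protein that carries the sulfur atom on its C-terminal end, Mocs3 is the E1-like enzyme that activates Urm1 and loads the sulfur, and Ctu1 and Ctu2 form the complex that places the sulfur on the uridine, which also carries the mcm5 side chain built by the Elongator complex. Cdkal1 is a radical SAM enzyme that adds a methylthio group to the adenosine beside the anticodon of Lys-UUU tRNA, and variants at the human gene are associated with type 2 diabetes.

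The members' own coding sequences use the codons of these tRNAs to different extents, and they are shown here because footprints were counted on them alone. The codons AAA (Lys), GAA (Glu), CAA (Gln) and AGA (Arg, read by a tRNA reported to carry the same modification) made up 6 of 101 codons in Urm1, 10 of 460 in Mocs3, 6 of 420 in Ctu1, 18 of 514 in Ctu2 and 70 of 578 in Cdkal1. On the study's gel that slows sulfur-containing tRNAs, Arg-UCU, which reads AGA, did not shift in any cell type. For Lys-UUU, Glu-UUC and Gln-UUG the study reported a lower ratio of sulfur-containing to unthiolated tRNA in oligodendrocytes than in OPCs. Its mass spectrometry also gave less of the thiolated nucleoside (mcm5s2U) in oligodendrocytes. A relation of these measurements to the levels of the member genes was not tested. Per 100 codons, the 4 codons came to 5.94 in Urm1, 2.17 in Mocs3, 1.43 in Ctu1, 3.50 in Ctu2 and 12.1 in Cdkal1. The median was 6.75 over the 10973 listed transcripts with a readable CDS. Cdkal1 thus stood above the median and the other 4 below it. Percentiles here are average ranks, with ties sharing a rank, among transcripts with a readable CDS, or those of them with the amino acid named. Cdkal1 used AAA for 23 of its 43 Lys codons (53.5%) and AGA for 15 of its 30 Arg codons (50.0%). Its share of AGA was at percentile 94.7. Ctu1 used GAA for 1 of its 20 Glu codons (5.00%), at percentile 2.13. Mocs3 had G or C at the third base of 86.1% of its codons, at percentile 99.0, whereas Cdkal1 had 48.3%, at percentile 18.2. In the lines that follow, Urm1 is given from codon 2 to codon 101. Each other gene is given by a stretch of 30 codons of its CDS that holds the most of these 4 codons. Where stretches tie, the first is shown. They begin at codon 373 in Mocs3, 325 in Ctu1, 31 in Ctu2 and 111 in Cdkal1. The sequences are of GRCm38 (Gencode vM21), 5′ to 3′ on the coding strand, and capitals mark AAA, GAA, CAA and AGA codons in frame. In Cdkal1 the window held 9 such codons, and in Ctu1 it held 3.
Urm1: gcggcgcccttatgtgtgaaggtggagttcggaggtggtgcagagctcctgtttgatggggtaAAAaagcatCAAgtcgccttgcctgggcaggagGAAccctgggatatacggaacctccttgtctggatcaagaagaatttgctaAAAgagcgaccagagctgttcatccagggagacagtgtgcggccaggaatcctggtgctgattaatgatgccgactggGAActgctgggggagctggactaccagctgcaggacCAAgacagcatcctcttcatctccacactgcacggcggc
Mocs3: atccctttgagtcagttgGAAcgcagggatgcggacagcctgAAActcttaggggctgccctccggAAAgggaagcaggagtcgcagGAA
Ctu1: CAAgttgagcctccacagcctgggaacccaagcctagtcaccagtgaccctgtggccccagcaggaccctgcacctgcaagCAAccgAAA
Ctu2: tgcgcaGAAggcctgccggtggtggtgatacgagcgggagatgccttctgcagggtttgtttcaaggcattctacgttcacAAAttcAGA
Cdkal1: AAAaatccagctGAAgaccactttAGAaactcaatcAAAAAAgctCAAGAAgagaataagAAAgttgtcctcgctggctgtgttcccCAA

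Urm1 and Mocs3 lie on chromosome 2 of GRCm38. Urm1 (ENSMUSG00000069020.9) spans chr2:29827342-29845002 on the plus strand with 5 exons, and its 306-base CDS is followed by a 3′ UTR of 1831 bases. The hairpin genes Mir219a-2, on the opposite strand, and Mir219b, on the same strand, have their near ends 628 and 644 bases downstream of it. The microRNA miR-219 is known as abundant in oligodendrocytes. Neither hairpin gene is listed in the FPKM table, and a relation to Urm1 was not tested. Mocs3 (ENSMUSG00000074576.4) is a gene of 1 exon at chr2:168230622-168232594 on the plus strand, and its start lies 30 bases from that of Dpm1 on the opposite strand. Ctu1 (ENSMUSG00000038888.8) has 3 exons at chr7:43672016-43678298, plus strand. Ctu2 (ENSMUSG00000049482.16) has 15 exons at chr8:122476143-122483092, plus strand, and 1395 of the 3066 bases of its transcript (45.5%), none of them coding, overlap exons of Piezo1 on the opposite strand. Cdkal1 (ENSMUSG00000006191.17) has 16 exons over 530.4 kb at chr13:29325301-29855674 on the minus strand.

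FPKM are reads scaled to the length of the feature in kilobases and to the mapped reads of the library, so levels of different genes can be compared per length within a kind of library. RNA-seq was tabulated on whole transcripts and footprints on the CDS. The depth, read from the spacing of the low values, was between 77.9 and 241 megabases aligned in RNA-seq and between 93.0 and 249 in footprints, with a possible factor of 2 in each. The shallowest library of each kind was oligodendrocyte replicate 2. Its footprints were listed at 0 for 31.1% of transcripts, against 14.7% to 20.5% in the other 3 footprint libraries. Of 4803 transcripts with at least 10 FPKM in each of the other 3 footprint libraries, 172 (3.58%) were listed at 0 there, while at most 3 transcripts were so in any other library. Among transcripts with 10 to 30 footprint FPKM in oligodendrocyte replicate 1, the median ratio of replicate 2 to replicate 1 was 0.711, and it was 0.974 for those with 100 to 1000 FPKM. In OPCs the same ratios were 1.02 and 1.02. The oligodendrocyte markers Cnp, Mag, Mog and Myrf rose in both kinds of library. Cnp went from 27.1 and 28.0 RNA-seq FPKM in the OPC cultures to 1325 and 1118 in the oligodendrocyte cultures, and the RNA of Mag, Mog and Myrf was listed at 0 in both OPC libraries. Of the 3 listed OPC markers, Pdgfra and Gpr17, a gene of committed precursors, were also higher in oligodendrocytes. Of 4 astrocyte markers, Gfap rose in RNA-seq, from 0.155 and 0 FPKM in OPCs to 14.2 and 2.11 in oligodendrocytes, and Slc1a3 fell, from 136.4 and 181.3 to 74.3 and 74.3. Aldh1l1 RNA was 0.671 and 0.390 FPKM in OPCs and 5.41 and 1.27 in oligodendrocytes (adjusted p = 0.102). Their summed RNA-seq FPKM, mostly Aldoc and Slc1a3, were 346 and 341 in OPCs and 329 and 264 in oligodendrocytes. Those of 4 neuron markers were 21.6 and 15.5 in OPCs and 44.2 and 47.6 in oligodendrocytes. Most of this was Tubb3, with 18.5 and 12.3 FPKM in OPCs and 40.5 and 42.3 in oligodendrocytes. Snap25 and Rbfox3 RNA overlapped between the groups, and Syt1 RNA went from 0.967 and 0.898 to 1.44 and 3.19 FPKM. The microglia marker Csf1r was at 0 in both oligodendrocyte libraries and at most 0.0674 in OPCs. The part of other cells in the results was not tested, and in lysates of many cells a change in the share of cells cannot be told apart from a change per cell.

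In the sulfur relay, the carrier Urm1 was higher in oligodendrocytes than in OPCs in RNA and in footprints. Its activating enzyme Mocs3 did not pass the test in either. Both subunits of the thiolase had lower values in both oligodendrocyte cultures, as did 44.2% of tested transcripts in RNA-seq and 37.9% in footprints. Of these thiolase changes only that of Ctu2 RNA passed the test. Urm1 RNA stood at 22.2 FPKM in OPC replicate 1 and 19.4 in OPC replicate 2, against 130.8 in oligodendrocyte replicate 1 and 149.7 in oligodendrocyte replicate 2, and values are given in this order throughout. Its footprints were 107 and 119 FPKM in the OPC cultures, against 628 and 629 in the oligodendrocyte cultures. Both oligodendrocyte cultures were far above both OPC cultures, and the 2 cultures of each cell type were close to each other. Both oligodendrocyte values lay above both OPC values for 27.6% of tested transcripts in RNA-seq and 31.8% in footprints. Urm1 RNA rose 6.72-fold, a log2 fold change of 2.75 (standard error 0.17, limma adjusted p = 5.47e-04), or 2.98 above the median change of all transcripts tested, which was -0.23. Its footprints rose 5.56-fold (log2 fold change 2.48, standard error 0.11, limma adjusted p = 0.00316). The footprint value was 2.40 and 2.55 without OPC replicate 1 and 2, and neither passed (adjusted p = 0.0864 and 0.0958). In those fits 0 transcripts in all passed limma, with 1961 and 1934 at an unadjusted p under 0.05. Urm1 was the single member that rose in either kind. It was among the 13.0% of the 8346 transcripts tested in RNA-seq, the 12.8% of the 8342 tested in footprints and the 9.72% of those tested in both that rose. The study itself lists Urm1 among modification genes that differed in RNA between OPCs and oligodendrocytes (DESeq2 adjusted p under 0.05). That test used more replicates and included the RNA-seq libraries used here, so the results are not independent. Only 294 tested transcripts had a larger log2 fold change in RNA-seq, and 556 had one in footprints. The mean RNA-seq level of Urm1 moved from above 74.3% of listed transcripts in OPCs to above 97.1% in oligodendrocytes, and its mean footprint level from above 88.8% to above 98.2%.

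**Figure D1:**
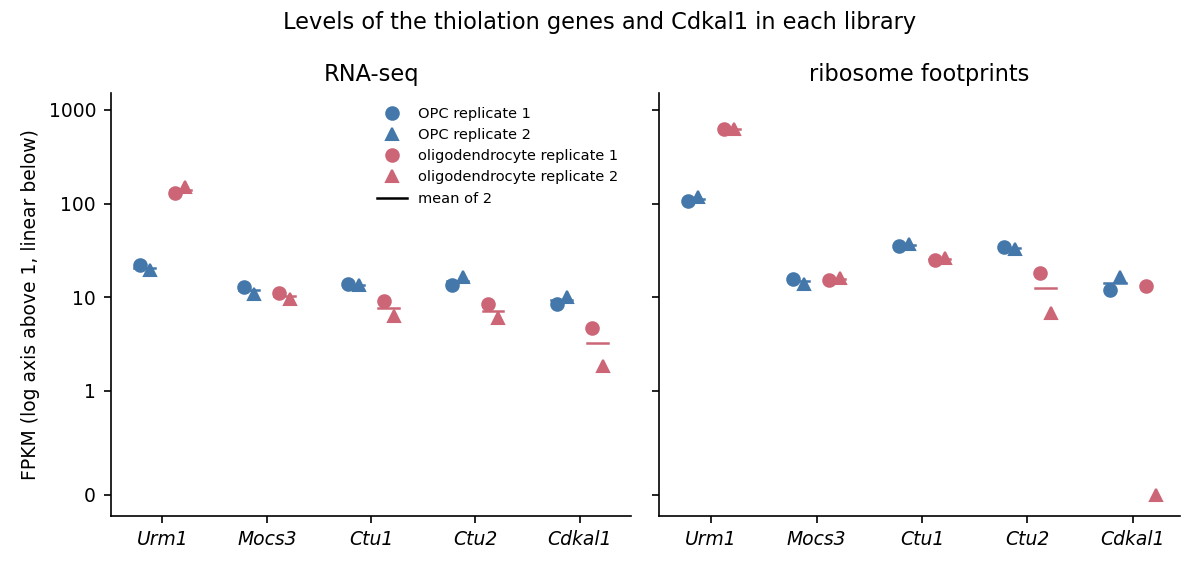
FPKM of the 5 genes in each library, RNA-seq on the left and ribosome footprints on the right, on an axis that is logarithmic above 1. Points are single cultures and bars are means of 2 (left out where a value is 0). Urm1 rises from 20.8 to 140.2 FPKM on average in RNA-seq, while the lowest points are those of Cdkal1 in oligodendrocyte replicate 2, with 1.85 in RNA-seq and 0 in footprints.

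Mocs3 RNA was 12.9 and 10.7 FPKM in the OPC cultures, against 11.2 and 9.47 in the oligodendrocyte cultures, and its footprints were 15.7 and 13.8 FPKM in the OPC cultures, against 15.4 and 16.2 in the oligodendrocyte cultures. The groups overlapped in both kinds. Its log2 fold change came to -0.19 in RNA-seq (95% interval -0.79 to 0.41, limma adjusted p = 0.57) and 0.10 in footprints (95% interval -0.58 to 0.78, limma adjusted p = 0.781). Both intervals end below the rise of Urm1.

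Ctu1, the subunit with the ATP-binding fold of the thiolase, had 13.7 and 13.5 FPKM of RNA in OPCs and 9.05 and 6.27 FPKM in oligodendrocytes. Its footprints were 35.5 and 37.0 FPKM in the OPC cultures, against 24.9 and 26.3 in the oligodendrocyte cultures. Both oligodendrocyte cultures were below both OPC cultures in either kind, as they were for 44.2% of tested transcripts in RNA-seq and 37.9% in footprints. The log2 fold change of -0.85 in RNA-seq (standard error 0.27, limma adjusted p = 0.0595) and that of -0.50 in footprints (standard error 0.17, limma adjusted p = 0.108) did not pass the threshold of 0.05. With the culture pairs as a block the RNA-seq call was made (adjusted p = 0.0448).

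Ctu2, the partner of Ctu1, had 13.5 and 16.3 FPKM of RNA in OPCs and 8.45 and 5.96 FPKM in oligodendrocytes. Its footprints were 34.6 and 32.5 FPKM in OPCs, 18.3 FPKM in oligodendrocyte replicate 1 and 6.86 FPKM in oligodendrocyte replicate 2. Both oligodendrocyte values were below both OPC values in either kind, as for 44.2% of tested transcripts in RNA-seq and 37.9% in footprints. In footprints the 2 oligodendrocyte cultures were far apart. Ctu2 RNA fell by 1.05 on the log2 scale (standard error 0.28, limma adjusted p = 0.0341), or -0.82 once the median change over tested transcripts is subtracted. Its footprint log2 fold change of -1.57 (standard error 0.53, limma adjusted p = 0.114) did not pass. Without oligodendrocyte replicate 2 the footprint value was -0.87 and the RNA-seq value -0.81, and neither passed (adjusted p = 0.0836 and 0.119). Nor did the RNA-seq value pass without OPC replicate 1 (-1.19, adjusted p = 0.164) or without OPC replicate 2 (-0.92, adjusted p = 0.253). The ratio of replicate 2 to replicate 1 for Ctu2 footprints, 0.374, was higher than that of 20.6% of the 2337 transcripts with 10 to 30 FPKM in replicate 1, whereas the ratios of Ctu1 and Mocs3, 1.05 each, were higher than those of over 81% of them. Reads of Ctu2 and Piezo1 in their shared 3′ bases cannot be told apart without strand. Piezo1 was listed at 2.15 and 1.28 RNA-seq FPKM in OPCs and at 0 in both oligodendrocyte libraries.

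Cdkal1 had 8.56 and 10.0 FPKM of RNA in OPCs and 4.65 and 1.85 FPKM in oligodendrocytes. Both oligodendrocyte values were below both OPC values, as for 44.2% of tested transcripts, and oligodendrocyte replicate 2 was the lowest. Cdkal1 RNA fell by 1.62 on the log2 scale (standard error 0.48, limma adjusted p = 0.0484), or -1.39 after subtraction of that median. With Ctu2 it was 1 of the 2 members that fell in RNA-seq, among 20.2% of all tested transcripts that did. About 380 aligned bases lay behind the lowest value, and without that culture the log2 fold change was -0.98 and did not pass (adjusted p = 0.111). Without OPC replicate 1 or 2 it was -1.73 and -1.51 and did not pass either (adjusted p = 0.242 and 0.307). The footprints of Cdkal1 were 11.8 and 16.3 FPKM in OPCs and 13.0 FPKM in oligodendrocyte replicate 1, and they were listed at 0 in oligodendrocyte replicate 2. In footprints the first oligodendrocyte culture therefore lay between the 2 OPC cultures. No fold is given for them, since a fitted value with a 0 depends on the amount added before taking logs, and without that culture the log2 fold change was -0.09 (adjusted p = 0.857). By limma, 0 members fell in footprints (2 at an unadjusted p under 0.05), against 10.8% of tested transcripts.

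**Figure D2:**
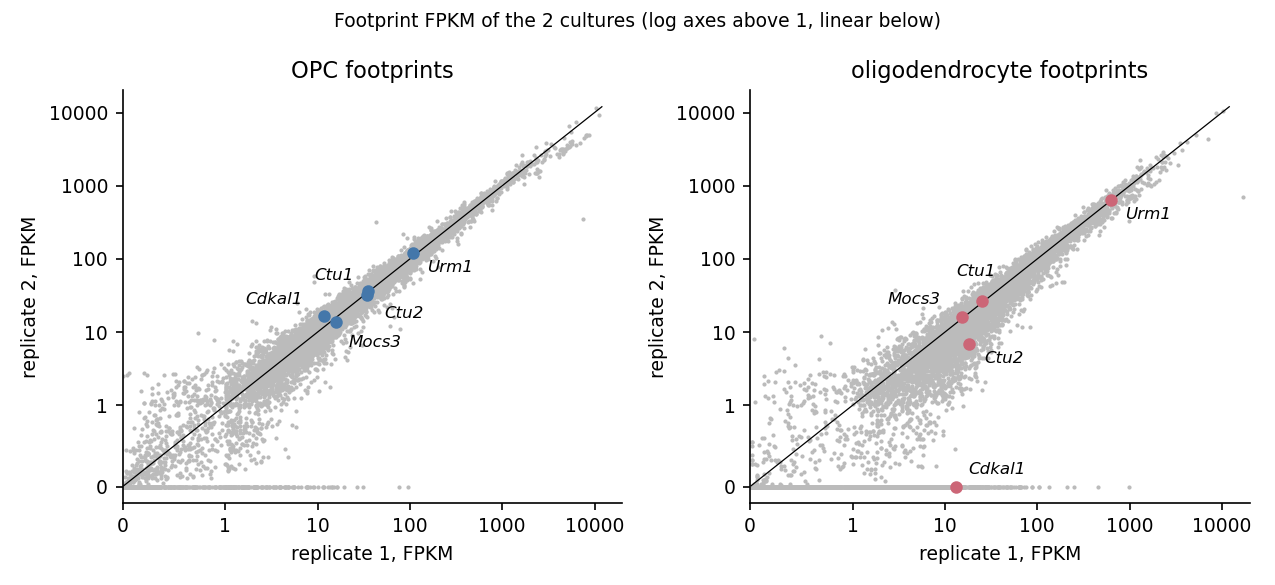
Footprint FPKM of replicate 2 against replicate 1 for every listed transcript above 0 in replicate 1 (grey), in OPCs on the left and oligodendrocytes on the right, on axes that are logarithmic above 1, with the line of equal values. In oligodendrocytes Urm1, Ctu1 and Mocs3 lie at the line, Ctu2 lies below it, and Cdkal1 is at 0 in replicate 2.

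The ratio of Urm1 to its partners, on the scale of FPKM within 1 library, does not depend on how libraries are scaled. Urm1 RNA was 1.72 and 1.81 times that of Mocs3 in OPCs and 11.7 and 15.8 times in oligodendrocytes. In footprints it was 6.84 and 8.58 times that of Mocs3 in OPCs and 40.8 and 38.7 times in oligodendrocytes. Against Ctu1 the footprint ratio went from 3.02 and 3.21 to 25.2 and 23.9. The ratio thus shifted in every pair of cultures by more than the spread between cultures of 1 cell type. Between the 2 thiolase subunits, the footprint ratio of Ctu1 to Ctu2 was 1.03 and 1.14 in OPCs and 1.36 and 3.83 in oligodendrocytes, and their RNA ratio was 1.01 and 0.832 in OPCs and 1.07 and 1.05 in oligodendrocytes. In RNA the ratio of the subunits thus lay between 0.832 and 1.07 in all 4 cultures, and in footprints oligodendrocyte replicate 2 stood apart.

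By mean RNA-seq level the order in OPCs was Urm1, Ctu2, Ctu1, Mocs3 and Cdkal1, with means of 20.8 ± 1.97, 14.9 ± 1.93, 13.6 ± 0.123, 11.8 ± 1.57 and 9.28 ± 1.02 FPKM (SD, n = 2). The values of Ctu2 and Ctu1 overlapped, and the other neighbours in this order did not. In oligodendrocytes the order was Urm1, Mocs3, Ctu1, Ctu2 and Cdkal1, and only Ctu1 and Ctu2 overlapped. Mocs3 RNA passed from below Ctu1 to above it, with ratios of 0.942 and 0.790 in OPCs and of 1.23 and 1.51 in oligodendrocytes. In footprints Urm1 was followed by Ctu1, Ctu2, Mocs3 and Cdkal1 in OPCs, where only Mocs3 and Cdkal1 overlapped. In oligodendrocytes Urm1 and Ctu1 were apart from the rest, and the values of Mocs3, Ctu2 and Cdkal1 overlapped with their neighbours.

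**Figure D3:**
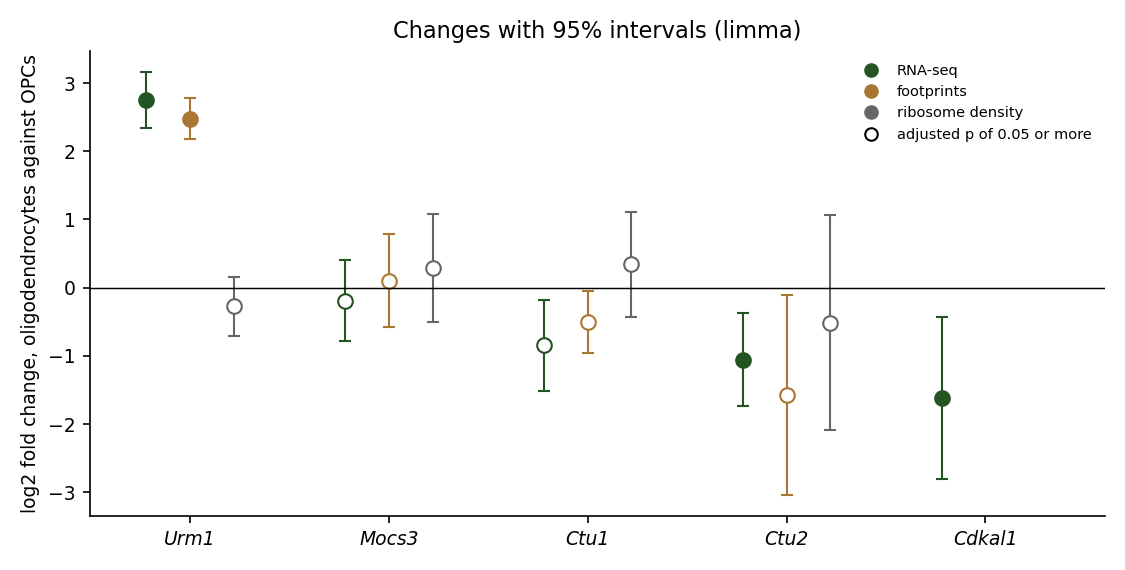
Log2 fold change of oligodendrocytes against OPCs for each gene with its 95% interval (limma), in RNA-seq, footprints and ribosome density; filled points have an adjusted p under 0.05. Footprints and density of Cdkal1 are not drawn because of the value of 0. Urm1 lies at 2.75 in RNA-seq and 2.48 in footprints, and its density interval includes 0.

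Ribosome density (RD) is the footprint FPKM divided by the RNA-seq FPKM of the same culture, and its change asks whether footprints moved apart from RNA. Urm1 had an RD of 4.84 and 6.12 in OPCs and of 4.80 and 4.20 in oligodendrocytes. This was higher than in 94.0% and 96.2% of transcripts in the OPC cultures and in 92.4% and 85.3% in the oligodendrocyte cultures. Both oligodendrocyte values lay below both OPC values, as for 11.5% of the 6876 transcripts with an RD in all 4 cultures. Among transcripts with a CDS of 200 to 400 bases, where the median RD was between 2.98 and 3.84, Urm1 was higher than 67.7% and 83.8% in OPCs and 72.2% and 68.2% in oligodendrocytes. The log2 change in RD was -0.27 (95% interval -0.71 to 0.16, limma adjusted p = 0.875), so no difference between the rise of its footprints and that of its RNA was detected.

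Mocs3 had an RD of 1.21 and 1.29 in OPCs and 1.38 and 1.71 in oligodendrocytes, below the median over transcripts in each culture, which was 1.72, 1.77, 2.02 and 1.95. Ctu1 had an RD of 2.59 and 2.73 in OPCs and 2.75 and 4.19 in oligodendrocytes. For both genes the oligodendrocyte cultures were above the OPC cultures, as for 33.0% of transcripts. Ctu2 had an RD of 2.56 and 2.00 in OPCs and 2.17 and 1.15 in oligodendrocytes, and its groups overlapped. Cdkal1 had an RD of 1.38 and 1.63 in OPCs and 2.80 in oligodendrocyte replicate 1, and it had none in replicate 2. No member passed the limma test for a change in RD (0 of 5 at an unadjusted p under 0.05), against 0.0124% of the 8056 tested transcripts. The 95% intervals of the log2 change were -0.50 to 1.08 for Mocs3, -0.42 to 1.12 for Ctu1 and -2.09 to 1.06 for Ctu2, which include changes of 2-fold in 1 direction or both.

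**Figure D4:**
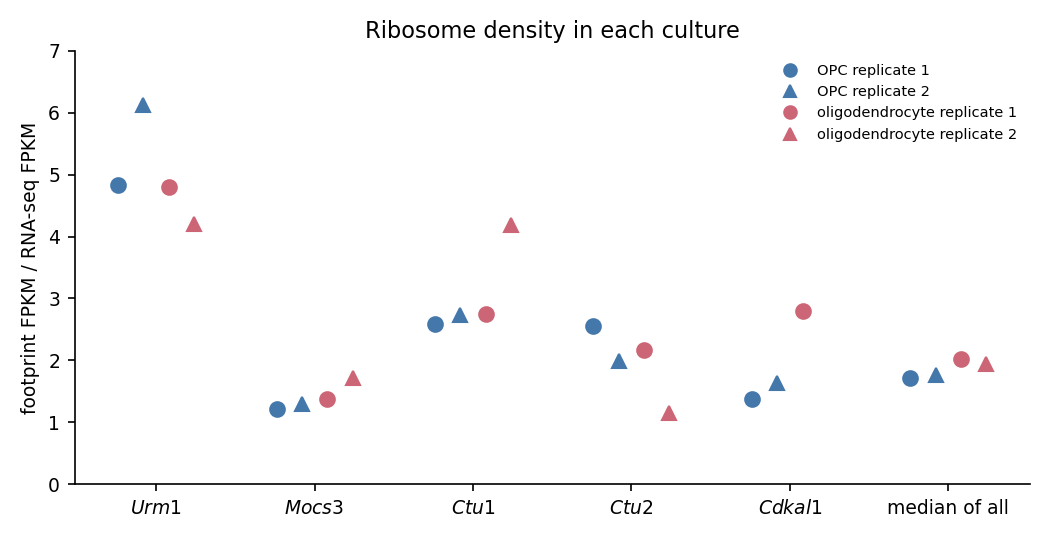
Ribosome density (footprint FPKM over RNA-seq FPKM) of each gene in the 4 cultures, with the median over transcripts at the right. Urm1 is the highest of the 5 in each culture, between 4.20 and 6.12 over the 4 cultures, while Mocs3 stays below the median and Cdkal1 has no value in oligodendrocyte replicate 2.

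The other genes of the pathway were taken from 7 lists of 55 genes, of which 39 are listed and 38 were tested in each kind. In RNA-seq 10 of the 38 fell and 1 rose, where 20.2% of all tested transcripts fell and 13.0% rose. In footprints 3 fell and 1 rose, where 10.8% fell and 12.8% rose. With the culture pairs as a block, 13 fell and 1 rose in RNA-seq, and 6 fell and 2 rose in footprints. With median-ratio scaling 7 fell and 2 rose in RNA-seq. With no minimum, 4 of the 11 RNA-seq calls and 1 of the 4 footprint calls were kept, and without the variance trend 6 and 0. Of the 11 RNA-seq and 4 footprint calls, 1 and 0 passed without either one of the OPC cultures. Without oligodendrocyte replicate 2, 3 fell and 0 rose in RNA-seq (11 and 2 at an unadjusted p under 0.05), and in footprints 0 passed limma in either direction (10 fell and 1 rose at an unadjusted p under 0.05). Of the 7 tested genes that build the mcm5 side chain on the same uridine, 3 fell in RNA-seq and 1 in footprints, with a median log2 fold change of -0.67 in RNA-seq and -0.62 in footprints, against -0.23 and -0.16 over all tested transcripts. Without oligodendrocyte replicate 2, 0 of these 7 passed limma in either kind (3 in RNA-seq and 2 in footprints at an unadjusted p under 0.05). Kti12, a regulator of Elongator, fell in RNA-seq from 22.7 and 24.0 to 12.0 and 10.7 FPKM (log2 fold change -1.03, limma adjusted p = 0.0133). Its footprints fell from 36.7 and 27.5 to 13.2 and 9.34 FPKM (log2 fold change -1.51, limma adjusted p = 0.0385). A gene on the opposite strand overlaps 51.3% of its transcript. Elp6, an Elongator subunit, fell in RNA-seq (not with median-ratio scaling) and had footprints of 58.4 and 58.4 FPKM in the OPC cultures, against 40.2 and 50.1 in the oligodendrocyte cultures (adjusted p = 0.193).

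Of the genes that make the threonylcarbamoyl adenosine to which Cdkal1 adds its methylthio group, 1 of 5 tested fell in RNA-seq and 0 in footprints by limma (3 at an unadjusted p under 0.05). This was Gon7, a small subunit of the KEOPS complex, with 9.12 and 15.0 FPKM in the OPC cultures, against 4.57 and 1.75 in the oligodendrocyte cultures (log2 fold change -2.01, adjusted p = 0.0334). Without oligodendrocyte replicate 2 its log2 fold change was -1.34 (adjusted p = 0.113), and 22.6% of its transcript overlaps Gm20604 on the same strand. The median of this list was -0.48 in RNA-seq and -1.16 in footprints. Of 4 genes for the wobble uridine and the neighbouring adenosine of mitochondrial tRNAs, Mto1 and Gtpbp3, the 2 partners in building the mitochondrial side chain, fell in RNA-seq (log2 fold changes -1.28 and -0.86, adjusted p = 0.0195 and 0.0295), Gtpbp3 not with median-ratio scaling. Trmu, the mitochondrial counterpart of the thiolase, had a log2 fold change of 0.25 in RNA-seq and -0.11 in footprints.

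Sulfur supply and cytosolic iron-sulfur assembly had 8 genes tested, of which 2 fell in RNA-seq and 1 in footprints. Nubp1, which scaffolds cytosolic iron-sulfur clusters, fell in RNA-seq from 32.7 and 33.2 to 16.1 and 12.4 FPKM (log2 fold change -1.22, adjusted p = 0.00918) and in footprints from 81.8 and 76.2 to 41.0 and 40.4 FPKM (log2 fold change -0.95, adjusted p = 0.0164), and 28.8% of its transcript overlaps exons of Tvp23a on the opposite strand. The list median was -0.27 in RNA-seq and -0.58 in footprints, against -0.23 and -0.16 over all tested transcripts, and without oligodendrocyte replicate 2 the footprint median was -0.06.

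Mocs3 also passes sulfur to the molybdenum cofactor pathway, of which 2 genes were tested. Mocs2, which encodes the subunits of molybdopterin synthase, was the single gene of the 7 lists that rose, from 41.5 and 57.9 to 91.0 and 80.6 FPKM in RNA-seq (log2 fold change 0.80, adjusted p = 0.0326) and from 68.0 and 60.0 to 137 and 117 FPKM in footprints (log2 fold change 0.99, adjusted p = 0.0199). Without oligodendrocyte replicate 2 it did not pass in either kind. Among 5 other ubiquitin-like modifiers 0 rose by limma in either kind (1 in each at an unadjusted p under 0.05), and Sumo3 fell in RNA-seq (log2 fold change -1.32, adjusted p = 0.00396) and Sumo2 in footprints (log2 fold change -0.79, adjusted p = 0.0308). With the culture pairs as a block, 3 of these modifiers fell in RNA-seq, and 2 fell and 1 rose in footprints, with Sumo2 RNA (adjusted p = 0.0158) and Sumo3 footprints (adjusted p = 0.0158) among those that fell. Of 7 tested E1 enzymes, the relatives of Mocs3, 1 fell in RNA-seq and 0 changed in footprints by limma (1 fell and 1 rose at an unadjusted p under 0.05). The one that fell was Uba2, an E1 subunit for SUMO (log2 fold change -0.86, adjusted p = 0.0302). Its footprints, with a log2 fold change of -0.60, passed with the block (adjusted p = 0.0475), and its RNA did not pass with median-ratio scaling or without any 1 of the 4 cultures.

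**Figure D5:**
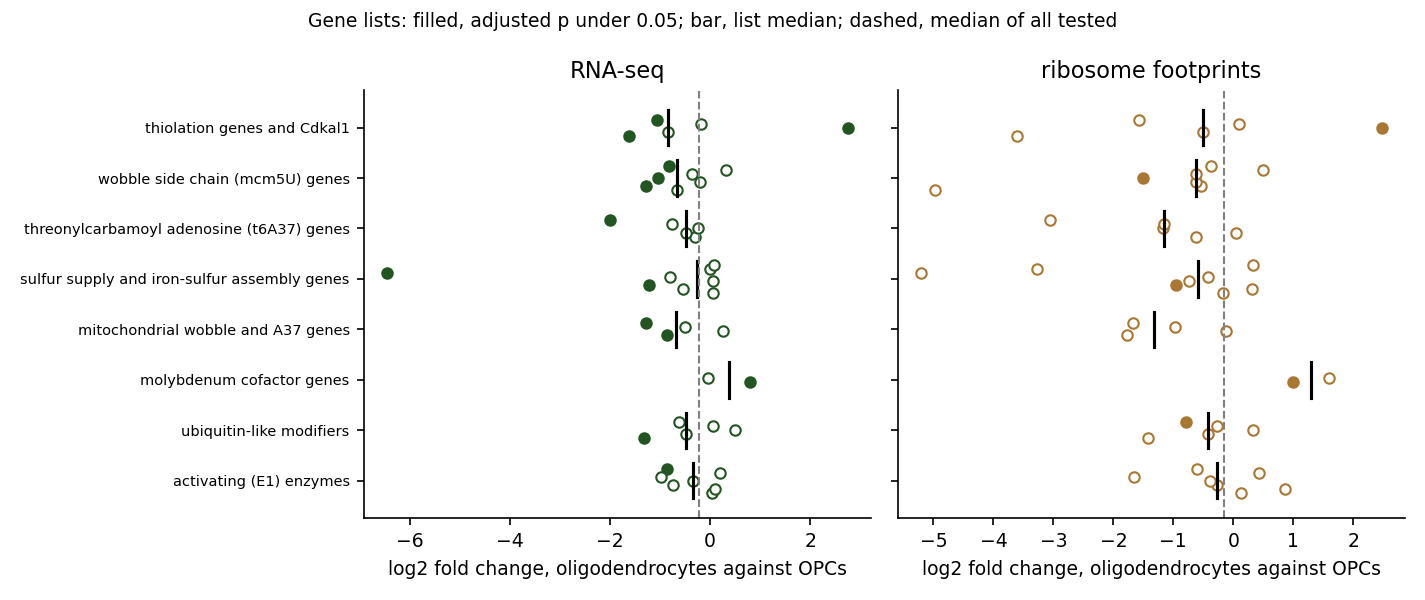
Log2 fold change of oligodendrocytes against OPCs for the 5 genes (top row) and for each tested gene of the 7 lists, in RNA-seq and footprints; filled points have an adjusted p under 0.05, bars are list medians, and the dashed line is the median of all tested transcripts (-0.23 and -0.16). Urm1 stands alone at the right, at 2.75 and 2.48, and the molybdenum cofactor list is the single list with a median above 0. The leftmost points include genes with a value of 0.

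Around Urm1, the upstream gene Slc27a4, a fatty acid transporter 9819 bases away on the same strand, rose, and the next one upstream, Coq4, did not pass. Slc27a4 RNA went from 19.9 and 13.8 to 48.7 and 41.7 FPKM (log2 fold change 1.44, adjusted p = 0.00808) and its footprints from 34.5 and 37.0 to 123.7 and 140.6 FPKM (log2 fold change 1.88, adjusted p = 0.00644). Coq4, which is needed for coenzyme Q synthesis, lies 29406 bases away on the same strand, and its RNA was 8.24 and 4.94 FPKM in the OPC cultures, against 7.08 and 7.62 in the oligodendrocyte cultures (log2 fold change 0.20, adjusted p = 0.67). The footprints of Coq4 went from 24.5 and 27.1 to 31.4 and 35.3 FPKM without passing (adjusted p = 0.227). Cercam, 24161 bases downstream, was listed at no more than 1.23 RNA-seq FPKM in any library. Beside Mocs3, the gene Dpm1 was listed at 17.6 and 15.5 RNA-seq FPKM in OPCs and at 0 in both oligodendrocyte libraries, although its footprints were 53.5 and 56.6 FPKM in the OPC cultures, against 74.5 and 71.5 in the oligodendrocyte cultures. A listed 0 in RNA-seq thus did not go with an absence of footprints there. Gm20716 and Adnp lie on the strand of Dpm1, and the span of Gm20716 overlaps both. RNA of Gm20716 was 0 and 41.0 FPKM in OPCs and 31.6 and 30.1 in oligodendrocytes. That of Adnp was 36.9 and 0.506 in OPCs and 0.782 and 0.595 in oligodendrocytes. How reads were divided among these overlapping genes was not tested.

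The transcripts most like each member over the 8 libraries were found by the root mean square difference of log2(FPKM + 0.1), centred within each kind, among 8056 transcripts. Those most like Urm1 were Taldo1, Rnf122 and Slc24a3 (0.141, 0.148 and 0.150 log2 units). Taldo1, which encodes transaldolase of the pentose phosphate pathway, went in RNA-seq from 149 and 147 FPKM in OPCs to 729 and 952 FPKM in oligodendrocytes. Those most like Mocs3 were Thnsl1, Rnf40 and Cd164, at 0.0476 to 0.0569. Those most like Ctu1 were Cdk11b, Elp6 (the Elongator subunit described above) and Coq5, at 0.0662 to 0.0880. Those most like Ctu2 were Nrf1, Gle1 and Nvl, at 0.106 to 0.145. Those most like Cdkal1 were St3gal5, Sirpa and BC017158, at 0.195 to 0.233. All 8 libraries entered this choice, so the patterns these transcripts share with the members, such as the rise of Taldo1, are fixed by it. This includes the low values of oligodendrocyte replicate 2 that they share with Ctu2 and Cdkal1.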

How the data were processed

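Footprints, cut with micrococcal nuclease, and alkali-fragmented total RNA came from the same lysates. The study names the sequence specificity of this nuclease as a limit. Its effect on footprint levels of genes with different base content was not tested. The authors deposited FPKM, made with fastx_clipper, HISAT2 2.1.0 on GRCm38, StringTie 1.3.5 without a strand option in the code given, and ballgown, for canonical coding transcripts of Gencode vM9. They were used as deposited. Fits used limma 3.58.1 (R 4.3.3, eBayes, variance trend) on log2(FPKM + 0.1) for transcripts averaging at least 1 FPKM over the 4 libraries of a kind, and the density change was their interaction (cell type by kind) over 8 libraries. Tests were two-sided and adjusted by Benjamini-Hochberg over all tested transcripts (threshold 0.05). A run on simulated data checked only that the median of an added log2 change was recovered. It set no condition on false calls. Depth came from steps in FPKM multiplied by length. Positions and coding sequences came from Gencode vM21. Named list genes passed in RNA-seq or footprints, at most 4 per list by RNA-seq adjusted p. List genes absent from the table were not analysed here, and some that passed are not reported here by name. Members and lists were chosen with earlier results of these data known.

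The reported tests did not use the pairing of cultures. The study states that oligodendrocytes came from the OPC replicates, so cultures with the same number were taken as pairs in the block alternative. That equal numbers match was assumed. The differences between replicates 1 and 2 in the 2 cell types correlated over transcripts (r = 0.108 in RNA-seq, 0.0860 in footprints). Alternatives were pseudocounts, minimums, median-ratio scaling, no trend, the pair block, each culture left out and density per culture. List counts by setting were added after seeing the data.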

Additional observations from a re-analysis of the deposited data

How the results depend on the processing

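The rise of Urm1 in RNA-seq kept its direction and its side of the threshold in all 11 alternatives (log2 fold change 2.65 to 2.93, adjusted p 5.48e-05 to 0.0415), and in footprints in 9 of 11. The 2 exceptions were the fits without 1 OPC culture, at 2.40 and 2.55 (adjusted p = 0.0864 and 0.0958), in which 0 transcripts in all passed limma, with 1961 and 1934 at an unadjusted p under 0.05. Mocs3 did not pass in any alternative. With the replicate block the Ctu1 RNA-seq change of -0.85 passed, 0 transcripts passed limma in density (439 at an unadjusted p under 0.05), and no other call on the 5 genes changed. The Ctu2 RNA-seq change of -1.05 did not pass with no minimum or without the variance trend (adjusted p = 0.0901 and 0.0599), and leaving out a culture gave -1.30 to -0.81. The Cdkal1 RNA-seq change did not pass with a pseudocount of 0.01 (-1.65), median-ratio scaling (-1.44), no minimum or no trend (-1.62 each), and leaving out a culture gave -2.26 to -0.98. Over its alternatives the adjusted p ranged from 0.0254 to 0.253 for Ctu2 and from 0.0232 to 0.307 for Cdkal1. In footprints, leaving out a culture gave -2.27 to -0.87 for Ctu2 and -7.13 to -0.0930 for Cdkal1, where both passed without oligodendrocyte replicate 1, since the remaining culture is then the low or 0 value of replicate 2. The density change of Cdkal1 ranged from -4.87 to 0.88 and so changed sign with the culture left out. The lowest values of Cdkal1, -7.13 and -4.87, rest on the single 0 and so on the 0.1 added, and are no measure of size.

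RNA-seq had 2772 calls and footprints 1969, against 1715 and 1163 with no minimum, and footprints had 1036 without the trend. Leaving out a culture gave 304 to 2227 in RNA-seq, 0 to 3010 in footprints and 0 to 863 in density. Density had 1 call, against 3 with a pseudocount of 0.01 or median-ratio scaling, 14 without the trend and 0 in limma on the ratio per culture (539 at an unadjusted p under 0.05). Median-ratio scaling moved the median RNA-seq change by 0.18 and the share of calls that were higher from 39.1% to 51.5%. The cause of these differences was not tested. The RNA-seq calls of Ctu2 and Cdkal1 were lost without oligodendrocyte replicate 2 and without either OPC culture, and the density intervals of Mocs3, Ctu1 and Ctu2 include a 2-fold change.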
